A study of Mus musculus with 4 samples.

Results

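The genes described here are 10 immune checkpoint and costimulatory genes, out of 32285 genes listed in the deposited tables. They were chosen by symbol and fall into 4 ligands (Cd274, Pdcd1lg2, Cd80 and Cd86) and 6 receptors (Pdcd1, Ctla4, Cd28, Lag3, Havcr2 and Tigit). All 10 were found, and each had UMIs in every library. The question was which cells of an orthotopic KPC tumor, a graft of mouse pancreatic cancer cells, held the ligands and which held the receptors, and how both differed after ablation of cancer-associated fibroblasts (CAFs).

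Droplet scRNA-seq was available for 4 libraries, 1 per condition, from KPC tumors of C57BL/6 mice labelled as 7 months old; the study's methods give obese males on a high-fat diet for 24 weeks, and another age. In the first model, mice carried Pdgfrb-TK, a thymidine kinase transgene driven by the Pdgfrb promoter, and received ganciclovir at 50 mg/kg (Pdgfrb-TK/GCV) or PBS (Pdgfrb-TK/PBS), so that both libraries share the transgene and ganciclovir kills those dividing cells that express it. In the second model, wild-type mice received D-CAN at 30 mg/kg, a peptide that homes to adipose stromal cells and induces apoptosis (D-CAN), or PBS (WT/PBS). Injections were given every other day for 25 days, and tumor suspensions were pooled by treatment before capture. There is thus no replicate of any condition and no p-value is given. All intervals are at 95% and cover counting error only.

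Checkpoint genes set how strongly a T cell answers an antigen. Cd274 (PD-L1) and Pdcd1lg2 (PD-L2) are ligands of the inhibitory receptor Pdcd1 (PD-1). Cd80 and Cd86 (B7-1 and B7-2) are shared ligands of the activating receptor Cd28 and of its inhibitory competitor Ctla4. Lag3, Havcr2 (TIM-3) and Tigit are further inhibitory receptors that accompany prolonged T cell stimulation, and Havcr2 is also known on dendritic cells (DCs) and macrophages.

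After cells with fewer than 200 detected genes were left out, 12280 cells remained in Pdgfrb-TK/GCV and 10469 in its control, Pdgfrb-TK/PBS. D-CAN kept 10178 cells and its control WT/PBS 11627. The totals ran from 84000174 to 155382616 UMIs per library and the medians from 4514.5 to 7421 UMIs per cell. Cells with more than 20% mitochondrial UMIs made up 4.48% to 29.3% of a library, the most in D-CAN. Any 2 libraries shared 26 to 42 cell barcodes. Each cell was assigned to a class by the markers it held, with at least 3 of the list of that class, and none of the 10 genes was a marker. The name of each class ends in "-like" for that reason. Pdgfrb-TK/GCV held 5868 KPC tumor-like, 1682 macrophage/monocyte-like and 112 T-like cells, against 6255, 518 and 23 in Pdgfrb-TK/PBS. D-CAN held 2227, 896 and 542 of the same classes, against 3878, 745 and 47 in WT/PBS. T-like cells thus made up 5.33% of the D-CAN library and between 0.220% and 0.912% of each of the others. B-like cells numbered 183, 36, 87 and 3, in the order Pdgfrb-TK/GCV, then its PBS control, then D-CAN, then WT/PBS, which holds for every series of 4 values in the text.

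Positions are whole gene spans in mm10 (GENCODE M21), and all 10 genes are protein coding. Cd274 (chr19:29367455-29388095, plus strand) and Pdcd1lg2 (chr19:29410919-29471161, plus strand) lie 22823 bases apart. Cd28 (chr1:60716800-60773359, plus strand) and Ctla4 (chr1:60887000-60915832, plus strand) lie 113640 bases apart. Pdcd1 lies elsewhere on the same chromosome (chr1:94038305-94052553, minus strand). Cd86 (chr16:36603869-36666081, minus strand), Cd80 (chr16:38455561-38496335, plus strand) and Tigit (chr16:43648867-43664146, minus strand) share a chromosome. Lag3 is at chr6:124904361-124911705 on the minus strand and Havcr2 at chr11:46454935-46481255 on the plus strand. Cd274 and Pdcd1lg2 each overlap an antisense gene of the annotation, on the opposite strand. Ctla4 overlaps a processed pseudogene on its own strand, so reads of that pair may not be fully separable.

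RefSeq promoter sequences (GRCm38.p6) were available for 7 of the 10 genes. The 250 bases before the start site are shown for the neighbouring PD-1 ligands Cd274 and Pdcd1lg2, whose levels are compared between tumor and myeloid cells, and for Cd80 and Havcr2, which were past 2-fold in both models over all cells. Capitals mark the AP-1-type letters TGANTCA, searched on both strands.
Cd274 (chr19:29367188-29367437, plus strand): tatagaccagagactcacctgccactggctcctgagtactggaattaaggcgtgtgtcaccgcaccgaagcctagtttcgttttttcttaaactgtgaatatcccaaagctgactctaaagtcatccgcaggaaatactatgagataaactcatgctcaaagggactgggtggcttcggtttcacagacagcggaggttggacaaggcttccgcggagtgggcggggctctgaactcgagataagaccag
Pdcd1lg2 (chr19:29410669-29410918, plus strand): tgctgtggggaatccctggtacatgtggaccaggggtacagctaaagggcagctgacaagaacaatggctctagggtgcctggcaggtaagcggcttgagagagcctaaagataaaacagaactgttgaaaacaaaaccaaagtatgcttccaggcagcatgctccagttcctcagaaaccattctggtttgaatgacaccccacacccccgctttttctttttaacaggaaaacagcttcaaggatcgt
Cd80 (chr16:38458683-38458932, plus strand): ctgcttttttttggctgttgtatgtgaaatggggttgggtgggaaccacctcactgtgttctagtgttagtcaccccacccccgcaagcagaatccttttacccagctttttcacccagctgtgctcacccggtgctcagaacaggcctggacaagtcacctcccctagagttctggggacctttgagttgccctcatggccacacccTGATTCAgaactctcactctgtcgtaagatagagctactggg
Havcr2 (chr11:46454681-46454930, plus strand): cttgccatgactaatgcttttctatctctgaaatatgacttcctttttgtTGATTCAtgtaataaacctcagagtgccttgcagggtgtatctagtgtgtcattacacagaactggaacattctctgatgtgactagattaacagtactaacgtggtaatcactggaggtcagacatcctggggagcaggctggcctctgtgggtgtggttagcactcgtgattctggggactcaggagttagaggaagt
The AP-1-type letters occurred once in Cd80 and once in Havcr2, and in 6.75% of all 32851 RefSeq promoters of this length. The ISRE-type letters GAAA, NN and GAAA in a row (2.98% of all promoters), the GAS-type letters TTCNNNGAA (7.02%) and the NF-kB-type letters GGGA, NN and TTCC in a row (1.21%) had no match in any of the 7 windows. Overlaps between these motifs were not removed. A match or its absence describes the letters of this window only.

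Over all cells, 5 of the 10 genes were past 2-fold between Pdgfrb-TK/GCV and Pdgfrb-TK/PBS, all of them higher with GCV, where 6.23% of the 18845 genes tested were past 2-fold in either direction. These 5 were the 4 ligands and Havcr2, and Cd28 joined them with a pseudocount of 0.1 CPM in place of 1 (1.98 on the log2 scale). Between D-CAN and WT/PBS, 6 of the 10 were past 2-fold, all higher with D-CAN, against 9.53% of 20254 genes tested. These 6 were Cd80 and every receptor but Tigit. A gene was counted as past 2-fold from its difference in log2(CPM + 1), which understates low genes. Tigit at a plain ratio of 4.18 with D-CAN, and Cd28 at 5.51, Pdcd1 at 2.85 and Tigit at 2.19 with GCV, were therefore not counted. The median difference over the 10 genes was 0.94 on that log2 scale with GCV, beside 0.08 over all genes tested, and 1.20 beside 0.09 with D-CAN. In sums over all cells, fewer cells of a type and less RNA per cell cannot be told apart.

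Cd274, the ligand that engages PD-1 on T cells, stood at 28.3, 12.7, 36.5 and 31.6 CPM over all cells. It was 2.23-fold higher [2.08 to 2.39] in Pdgfrb-TK/GCV than in Pdgfrb-TK/PBS and 1.15-fold higher [1.11 to 1.20] in D-CAN than in WT/PBS. The PBS libraries themselves differed, with Pdgfrb-TK/PBS at 0.401 [0.375 to 0.428] of WT/PBS, and against WT/PBS the difference with GCV turned to -0.16 on the log2(CPM + 1) scale. Pdcd1lg2, the second ligand of PD-1, stood at 9.56, 2.42, 7.52 and 4.25 CPM, a ratio of 3.96 [3.41 to 4.61] with GCV and of 1.77 [1.60 to 1.96] with D-CAN. Cd80 stood at 13.7, 5.08, 16.3 and 5.10 CPM, with near equal PBS libraries, and was 2.70-fold [2.43 to 3.01] and 3.20-fold [2.95 to 3.48] higher in the treated ones. Cd86 stood at 35.0, 8.18, 27.9 and 19.8 CPM, a ratio of 4.27 [3.94 to 4.64] with GCV and of 1.41 [1.34 to 1.48] with D-CAN.

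Pdcd1, the receptor of both, had 39 UMIs in Pdgfrb-TK/GCV and 9 in Pdgfrb-TK/PBS, against 697 UMIs after D-CAN and 39 in its control. Its ratio was 2.85 [1.36 to 6.69] with GCV and 21.4 [15.5 to 30.4] with D-CAN. Cd28, the costimulatory receptor, stood at 1.05, 0.190, 4.83 and 0.663 CPM, ratios of 5.51 [3.27 to 9.91] and 7.29 [5.91 to 9.07]. Ctla4 was the only one of the 10 genes that was lower with GCV over all cells, at 3.17 against 4.20 CPM (ratio 0.755 [0.653 to 0.873]), and against WT/PBS this turned to 0.33 on the log2(CPM + 1) scale. With D-CAN, Ctla4 was higher, at 9.72 against 2.32 CPM (ratio 4.18 [3.72 to 4.72]). KPC tumor-like cells held 187 of 405 Ctla4 UMIs in Pdgfrb-TK/GCV and 261 of 353 in Pdgfrb-TK/PBS. T-like cells held 730 of 1259 in D-CAN and 60 of 361 in WT/PBS. Lag3 stood at 3.32, 1.93, 5.01 and 1.46 CPM, with ratios of 1.72 [1.43 to 2.08] and 3.43 [2.94 to 4.01]. Havcr2 stood at 9.01, 2.49, 8.99 and 3.63 CPM, with ratios of 3.62 [3.12 to 4.22] and 2.48 [2.24 to 2.74]. Tigit stood at 0.626, 0.286, 1.45 and 0.348 CPM, with ratios of 2.19 [1.37 to 3.62] and 4.18 [3.07 to 5.76].

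**Figure D1:**
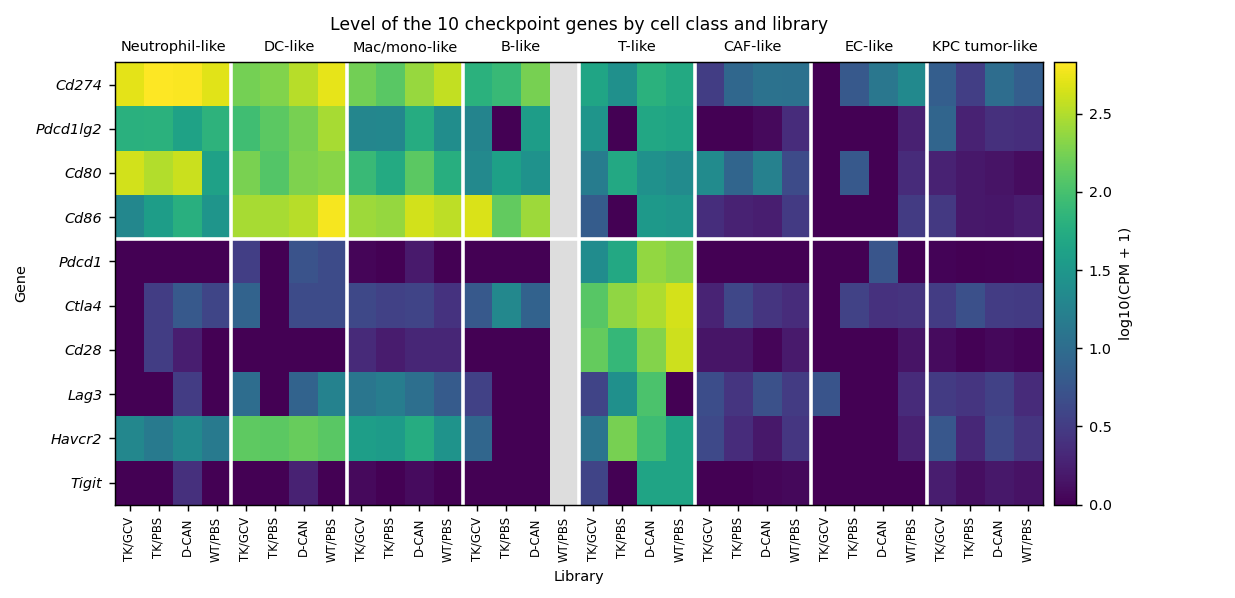
Level of each gene (rows) by cell class and library (columns), as log10(CPM + 1) of the UMIs summed over the cells of the class, with TK standing for Pdgfrb-TK and grey for a class with fewer than 20 cells. The ligands are brightest in neutrophil-like, DC-like, macrophage/monocyte-like and B-like cells, and Pdcd1, Ctla4 and Cd28 in T-like cells, with Pdcd1 at 233 CPM in those of D-CAN.

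Rankings of classes in the text are among classes with at least 20 cells in a library. The ligands were highest in myeloid or B-like cells in every library. Cd274 was highest per UMI in neutrophil-like cells, at 515, 671, 646 and 507 CPM (237, 295, 884 and 531 UMIs). DC-like cells followed at 173, 194, 332 and 531 CPM. Neutrophil-like cells stood above DC-like cells in 3 libraries, by 1.95-fold to 3.47-fold, and the 2 classes did not differ beyond counting error in WT/PBS (DC-like over neutrophil-like 1.05 [0.871 to 1.25]). Macrophage/monocyte-like cells stood at 168, 125, 248 and 365 CPM. These cells held 18.8% to 48.2% of a library's Cd274 UMIs, neutrophil-like cells 6.56% to 27.7% and KPC tumor-like cells 8.12% to 14.6%. The remainder sat largely in cells with markers of more than 1 lineage or with too few markers to assign.

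Cd274 was detected in 43.0%, 41.1%, 45.3% and 52.6% of neutrophil-like cells, whose median depth was 1091 to 2049.5 UMIs. Among the neutrophil-like cells with at least 2000 UMIs, thinned to that depth, the shares were 43.5% of 69 cells, 33.3% of 27, 44.4% of 297 and 37.7% of 154. In CAF-like cells, at median depths of 4584 to 9600 UMIs, Cd274 was detected in 2.34% to 6.20% of cells, and in 0.524% to 1.74% after thinning. The share of neutrophil-like cells with Cd274 was therefore far above that in CAF-like cells although the latter were sequenced more deeply.

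With GCV, Cd274 differed less within the myeloid classes than over all cells. In macrophage/monocyte-like cells it was 1.35-fold [1.16 to 1.57] higher with GCV and stood at 0.681 [0.633 to 0.733] of WT/PBS with D-CAN. Different clusters held most of this class, cluster 7 in Pdgfrb-TK/GCV (50.9%) and WT/PBS (75.0%) and cluster 10 in Pdgfrb-TK/PBS (56.2%) and D-CAN (59.2%). Inside cluster 7, the Cd274 ratio was 0.897 [0.738 to 1.10] with GCV and 0.690 [0.622 to 0.764] with D-CAN. Inside cluster 10 it was 1.63 [1.29 to 2.08] and 1.47 [1.20 to 1.81], so the direction with D-CAN was not the same in both clusters. Against the other model's PBS library the log2(CPM + 1) difference of the class turned in both models, to -1.11 with GCV and 0.99 with D-CAN. In neutrophil-like cells the Cd274 ratio was 0.767 [0.644 to 0.913] with GCV and 1.27 [1.14 to 1.42] with D-CAN, and against the other PBS library 0.02 and -0.06 on the log2(CPM + 1) scale. After thinning to 2000 UMIs, the difference with GCV in neutrophil-like cells turned to 0.97 on that scale. In DC-like cells the Cd274 ratio was 0.895 [0.587 to 1.39] with GCV and 0.625 [0.518 to 0.758] with D-CAN. None of these was past 2-fold.

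The DC-like class was of different make-up in the wild-type model. D-CAN held 88 cDC1-like, 66 cDC2-like and 16 Ccr7-marked cells among 170, and WT/PBS held 5, 22 and 8 among 35. Cd274 was lower with D-CAN in cDC2-like cells (312 against 696 CPM) but stood at 265 against 133 CPM in cDC1-like cells and at 968 against 318 CPM in Ccr7-marked cells, each of these WT/PBS values resting on fewer than 20 cells. With Leiden clusters in place of the gate, the DC-like difference with D-CAN turned on the log2(CPM + 1) scale, to 0.32 for Cd274, 1.07 for Pdcd1lg2 and 0.32 for Cd86, and against the other PBS library to 0.78, 0.43 and 0.22. The Leiden class was cluster 12, a wider population with 546 cells in D-CAN and 310 in WT/PBS. Of these cells, 148 and 24 were DC-like by the gate, and 121 and 79 were macrophage/monocyte-like.

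Pdcd1lg2 was highest in DC-like cells in all 4 libraries, at 90.1, 129, 174 and 284 CPM. In Pdgfrb-TK/GCV it was not apart from the next class, neutrophil-like cells (1.48 [0.888 to 2.50]), and in the other 3 libraries it stood 2.03-fold to 4.25-fold above the next class. DC-like cells of D-CAN stood at 0.613 [0.473 to 0.80] of those of WT/PBS, which were 35 cells. In D-CAN, cDC1-like cells, the subset that cross-presents antigen, held 117 of these UMIs at 197 CPM, where the 5 cDC1-like cells of WT/PBS held none. The cDC2-like cells stood at 126 CPM with D-CAN and 340 CPM in WT/PBS. The DC subset with the migration receptor Ccr7 counted 8 to 16 cells per library and had 24, 11, 76 and 23 UMIs of Cd274 and 9, 14, 24 and 21 UMIs of Pdcd1lg2.

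In macrophage/monocyte-like cells, Pdcd1lg2 stood at 18.8, 19.3, 55.2 and 23.1 CPM (195, 31, 273 and 115 UMIs). The D-CAN library stood apart from the other 3. The ratio was 0.973 [0.664 to 1.47] with GCV and 2.39 [1.92 to 3.0] with D-CAN, and with D-CAN it was 2.18 [1.63 to 2.91] inside cluster 7 and 7.46 [3.13 to 23.3] inside cluster 10. Of the 7 genes with enough UMIs in this class, 2 were past 2-fold with D-CAN, Pdcd1lg2 and Cd80, where 19% of all genes tested were. With GCV, 0 of 7 were, against 9.65%.

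KPC tumor-like cells carried low levels of both PD-1 ligands per UMI, but many UMIs in sum. Pdcd1lg2 stood there at 7.40, 0.847, 1.45 and 1.35 CPM (625, 56, 75 and 91 UMIs). The GCV library was alone in its height, 8.74-fold [6.64 to 11.7] above its PBS library, and these cells held 51.2% of all Pdcd1lg2 UMIs of Pdgfrb-TK/GCV. The D-CAN ratio was 1.07 [0.776 to 1.47]. Pdcd1lg2 was detected in 7.65%, 0.735%, 2.25% and 1.93% of KPC tumor-like cells at median depths of 11976, 8292, 19430 and 12495 UMIs. After thinning to 2000 UMIs, 70 of 5192 cells (1.35%) held it in Pdgfrb-TK/GCV and 9 of 5641 (0.160%) in Pdgfrb-TK/PBS.

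The Pdcd1lg2 UMIs of tumor cells were unevenly spread over clusters. In Pdgfrb-TK/GCV, the KPC tumor-like cells of cluster 2 stood at 11.6 CPM (333 UMIs), those of cluster 0 at 8.19 CPM (193 UMIs) and those of cluster 1 at 0.428 CPM (5 UMIs). In Pdgfrb-TK/PBS the same clusters stood at 4.16 CPM (23 UMIs), 1.18 CPM (13 UMIs) and 0.0816 CPM (3 UMIs). Cluster 2 held 31.3% of the KPC tumor-like cells in Pdgfrb-TK/GCV, whereas cluster 1 held the most in Pdgfrb-TK/PBS (40.3%), so the class was of different make-up in the 2 libraries. When whole clusters were named from the markers, clusters 0 and 1 were named KPC tumor and cluster 2 was left unassigned. Macrophage markers summed to 46.7 CPM in KPC tumor-like cells of Pdgfrb-TK/GCV and to 18, 10.5 and 9.92 CPM in the other 3. The ratio of Pdcd1lg2 to Cd86 UMIs in Pdgfrb-TK/GCV was 3.83 in KPC tumor-like cells and 0.0731 in macrophage/monocyte-like cells. The part of macrophage RNA in the Pdcd1lg2 UMIs of tumor cells was not tested.

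Cd274 in KPC tumor-like cells stood at 6.01, 2.34, 9.18 and 5.94 CPM (508, 155, 476 and 399 UMIs). It was 2.57-fold [2.14 to 3.09] higher with GCV and 1.55-fold [1.35 to 1.77] higher with D-CAN. The PBS libraries differed here too, with Pdgfrb-TK/PBS at 0.394 [0.326 to 0.476] of WT/PBS, and Pdgfrb-TK/GCV stood near WT/PBS. Havcr2 stood there at 4.87, 1.07, 2.97 and 1.76 CPM, 4.53-fold [3.52 to 5.92] higher with GCV and 1.69-fold [1.32 to 2.17] higher with D-CAN. After thinning, Havcr2 was detected in 0.559% of these cells with GCV and 0.390% with PBS, levels close to that of single UMIs. Macrophage markers were also higher in these cells with GCV, and the part of macrophage RNA in their Cd274 and Havcr2 UMIs was not tested. On the log2(CPM + 1) scale, 3 of 9 genes tested in this class were past 2-fold with GCV, Cd274, Pdcd1lg2 and Havcr2, against 5.05% of all genes tested. With D-CAN 0 of 8 were, against 10%.

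**Figure D2:**
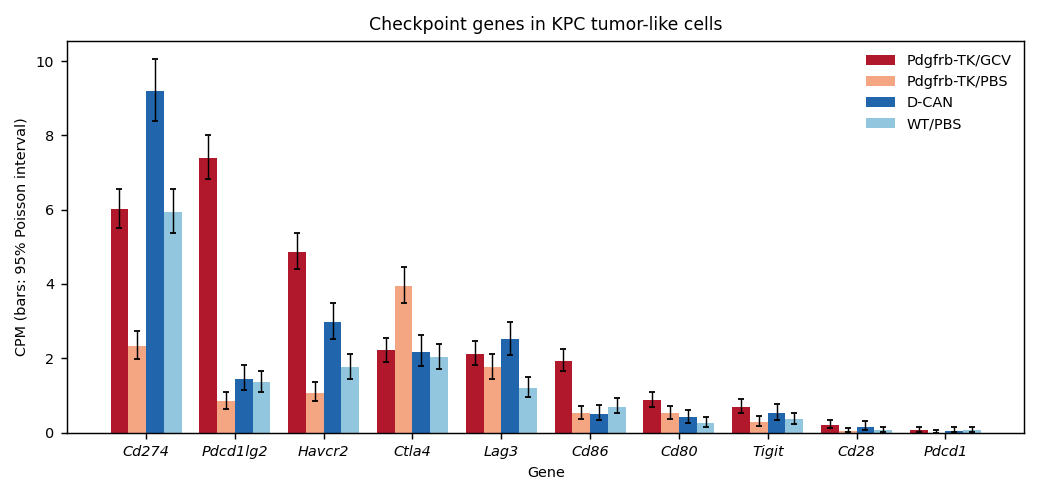
Levels of the 10 genes in KPC tumor-like cells by library, as CPM on a linear axis; each bar is 1 library and the error bars are exact Poisson 95% intervals. Pdcd1lg2 in Pdgfrb-TK/GCV, at 7.40 CPM, lies above the other 3 libraries, which lie between 0.847 and 1.45 CPM.

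Cd80, which binds Ctla4 more tightly than Cd28, was also highest per UMI in neutrophil-like cells in 3 of 4 libraries. These cells stood at 430, 319, 394 and 40.1 CPM (198, 140, 539 and 42 UMIs). They held 5.30% to 32.8% of a library's Cd80 UMIs, and macrophage/monocyte-like cells held 19.7% to 48.7%. In CPM the WT/PBS library stood low by itself, and the other 3 lay within 1.35-fold of each other. The ratio with D-CAN was accordingly 9.82 [7.17 to 13.8], and that with GCV 1.35 [1.08 to 1.69]. Pdgfrb-TK/PBS stood 7.94-fold [5.59 to 11.5] above WT/PBS, a difference between 2 untreated libraries nearly as large as that with D-CAN.

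Cd80 was detected in 41.3%, 28.0%, 47.3% and 10.4% of neutrophil-like cells, and in 47.8%, 14.8%, 43.1% and 9.74% of those deep enough to be thinned to 2000 UMIs. These were 69, 27, 297 and 154 cells. At that depth Pdgfrb-TK/PBS, with Cd80 in 4 of 27 cells, lay nearer to WT/PBS than to the treated libraries. In KPC tumor-like cells Cd80 was detected in 0.438% to 0.920% of cells, at median depths of 8292 to 19430 UMIs. Neutrophil markers summed to 25068, 37351, 70769 and 54946 CPM in neutrophil-like cells, which were gated on them. In D-CAN, 2 of 5 genes tested in this class were past 2-fold, Cd80 and Cd86, both higher, against 24.5% of all genes tested. With GCV 0 of 4 were, against 10.3%.

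In macrophage/monocyte-like cells Cd80 stood at 82.3, 52.3, 130 and 58.2 CPM. It was 1.57-fold [1.26 to 1.99] higher with GCV and 2.24-fold [1.95 to 2.58] higher with D-CAN. With GCV the Cd80 ratio was 0.923 [0.666 to 1.31] in cluster 7 and 2.17 [1.58 to 3.04] in cluster 10. With D-CAN Cd80 was higher in both clusters of the class, by 2.71-fold [2.29 to 3.21] in cluster 7 and 9.24-fold [4.64 to 21.6] in cluster 10, the latter from 8 UMIs in WT/PBS. DC-like cells stood at 180, 117, 188 and 210 CPM. In CAF-like cells, Cd80 stood at 22.1, 7.37, 16.3 and 3.39 CPM (49, 17, 181 and 62 UMIs), 3.0-fold [1.70 to 5.56] higher with GCV and 4.80-fold [3.58 to 6.52] higher with D-CAN.

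CAF-like cells were thus higher in Cd80 in both treated libraries. The same held inside cluster 4, at 2.39-fold [1.28 to 4.68] and 7.00-fold [5.02 to 9.81], although cluster 4 held 77.5% of the CAF-like cells of WT/PBS and cluster 16 held 44.4% of those of D-CAN. Cd274 went the other way with GCV in CAF-like cells, with 5 UMIs against 18 (ratio 0.289 [0.084 to 0.809]), and did not differ in the class with D-CAN (1.03). Inside cluster 4, Cd274 was 1.74-fold [1.28 to 2.34] higher with D-CAN. Both genes with enough UMIs were past 2-fold with GCV in this class, against 8.88% of genes tested, and 1 of 7, Cd80, with D-CAN, against 19%. Neutrophil markers summed to 144, 112, 62.0 and 38.0 CPM in CAF-like cells, higher in each treated library than in its PBS library as Cd80 was, and their part in the result was not tested.

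Cd86, the B7 ligand that antigen-presenting cells carry at rest, was mainly a gene of macrophage/monocyte-like cells, which held 55.3% to 59.7% of its UMIs in the 4 libraries. They stood at 257, 237, 424 and 353 CPM, and the ratio was 1.09 [0.974 to 1.21] with GCV and 1.20 [1.13 to 1.28] with D-CAN. With GCV the 2 main clusters went opposite ways, at 0.713 [0.607 to 0.841] in cluster 7 and 1.55 [1.32 to 1.82] in cluster 10. With D-CAN the ratio was 1.49 [1.38 to 1.62] in cluster 7 and 1.52 [1.29 to 1.81] in cluster 10. The 4.27-fold difference over all cells with GCV was therefore not reached per UMI in the class that held most of the gene, nor in either cluster. Macrophage/monocyte-like cells made up 13.7% of Pdgfrb-TK/GCV cells and 4.95% of Pdgfrb-TK/PBS cells. DC-like cells stood at 287, 288, 335 and 609 CPM, and with D-CAN at 0.550 [0.460 to 0.660] of WT/PBS. B-like cells stood at 458 CPM in Pdgfrb-TK/GCV, above DC-like cells by 1.60-fold [1.27 to 2.03], and at 138 and 259 CPM in Pdgfrb-TK/PBS and D-CAN. In DC-like cells, 0 of 5 genes tested were past 2-fold with GCV, against 15% of all genes tested, and 0 of 5 with D-CAN, against 27.4%.

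**Figure D3:**
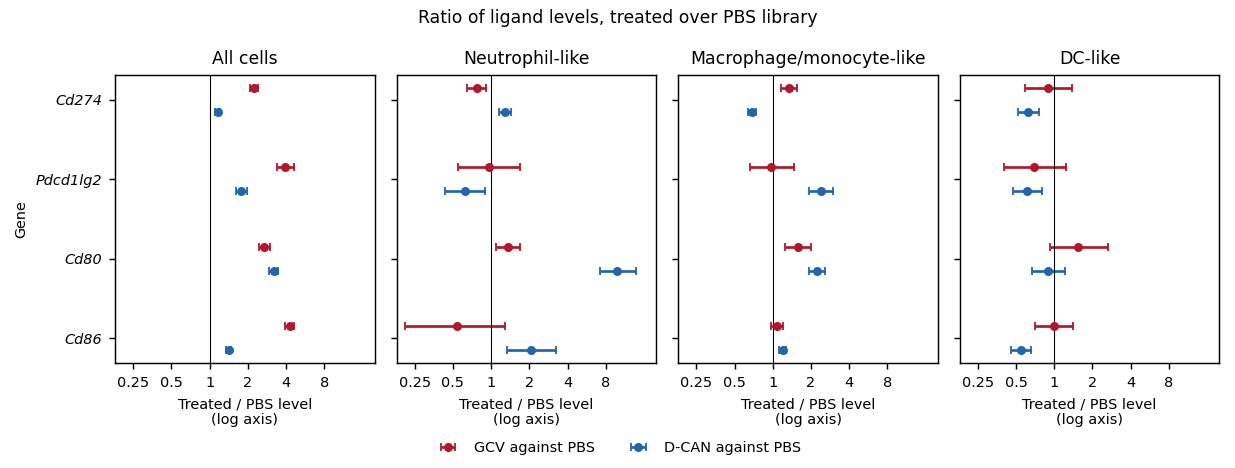
CPM ratio of each ligand between a treated library and the PBS library of its model, on a log axis, over all cells and in neutrophil-like, macrophage/monocyte-like and DC-like cells; points are ratios and bars their 95% counting intervals. Cd80 in neutrophil-like cells with D-CAN, at 9.82, lies farthest from 1. The DC-like ratios with D-CAN for Cd274, Pdcd1lg2 and Cd86 lie between 0.550 and 0.625, in classes of different DC make-up. These 3 turned direction with the other PBS library. They also turned with Leiden clusters, whose DC class was wider and held macrophage/monocyte-like cells too.

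Many antigen-presenting cells held UMIs of several ligands. At least 2 of the 4 ligands were detected in 58.8%, 33.3%, 53.5% and 82.9% of DC-like cells, and in 24.3%, 22.0%, 31.9% and 54.5% after thinning to 2000 UMIs. In macrophage/monocyte-like cells the shares were 42.5%, 17.2%, 48.3% and 54.1%, and 17.4%, 14.5%, 27.2% and 26.7% after thinning. WT/PBS, with 35 DC-like cells, had the highest share of DC-like cells at both depths. Neutrophil-like cells held at least 2 ligands in 23.0%, 17.8%, 30.3% and 18.6% of cells, and Cd274 together with Cd80 in 39, 33, 130 and 25 cells.

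**Figure D4:**
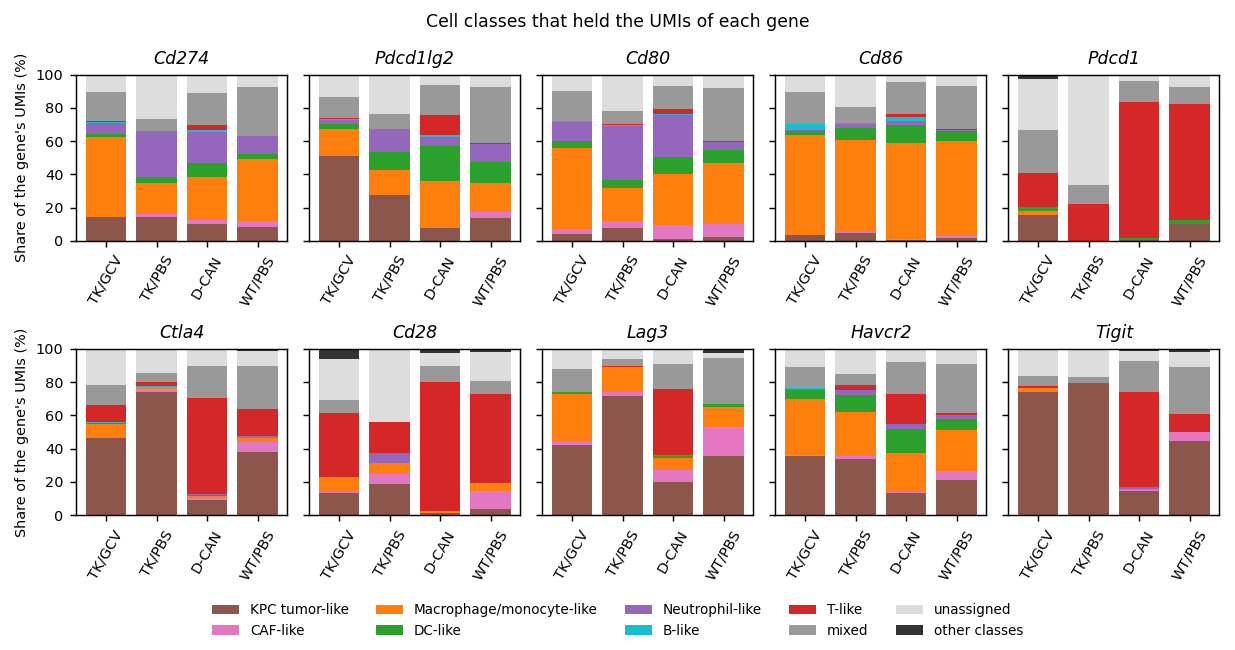
Share of each gene's UMIs, in percent of its UMIs in a library, held by each cell class; each panel is a gene and each stacked bar a library, with TK standing for Pdgfrb-TK. T-like cells hold 81.9% of Pdcd1 UMIs in D-CAN, and macrophage/monocyte-like cells hold 55.3% to 59.7% of Cd86 UMIs in every library.

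Among classes with at least 20 cells in a library, the receptors Pdcd1, Ctla4 and Cd28 were highest in T-like cells in all 4 libraries. For Pdcd1 in Pdgfrb-TK/PBS this rests on 2 UMIs. In D-CAN these cells held 81.9% of Pdcd1 UMIs, 58.0% of Ctla4 UMIs, 78.0% of Cd28 UMIs and 56.9% of Tigit UMIs, but only 39.6% of Lag3 UMIs and 18.5% of Havcr2 UMIs. In Pdgfrb-TK/PBS, where 23 T-like cells were found, KPC tumor-like cells held 73.9% of Ctla4 UMIs, 71.6% of Lag3 UMIs and 79.2% of Tigit UMIs. Per UMI these tumor cells were low in Ctla4, at 2.21, 3.95, 2.18 and 2.02 CPM, and the ratio with GCV was 0.561 [0.463 to 0.680]. T-like cells stood at 122, 225, 298 and 442 CPM of Ctla4.

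Receptor proportions were computed within both classes. T-like cells held 5.38, 4.50, 1.28 and 2.22 Ctla4 UMIs per Pdcd1 UMI. KPC tumor-like cells held 31.2, 56.5 and 34.0 in Pdgfrb-TK/GCV, D-CAN and WT/PBS, and 261 Ctla4 UMIs with no Pdcd1 UMI in Pdgfrb-TK/PBS. T markers summed to 27.8, 14.2, 6.48 and 7.25 CPM in KPC tumor-like cells. Ctla4 also overlaps a processed pseudogene on its own strand. The parts of T cell RNA and of pseudogene reads in the Ctla4 UMIs of these tumor cells were not tested. Ctla4 was detected in 2.97%, 3.98%, 4.94% and 3.46% of these cells, and in 0.327% to 0.798% after thinning.

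Pdcd1 in T-like cells stood at 22.8, 50.1, 233 and 199 CPM (8, 2, 571 and 27 UMIs). Both libraries of the wild-type model thus stood well above Pdgfrb-TK/GCV. The D-CAN ratio per UMI of T-like cells was 1.17 [0.798 to 1.80], beside 21.4 over all cells. Pdcd1 was detected in 43.2% of the D-CAN T-like cells (median depth 3598.5 UMIs) and in 36.2% of the WT/PBS ones (median 2670), and in 0.0898% of the KPC tumor-like cells of D-CAN at 19430 UMIs. No CAF-like or neutrophil-like cell held a Pdcd1 UMI in any library.

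Ctla4 and Cd28, the competing receptors for Cd80 and Cd86, were both lower per UMI in D-CAN T-like cells than in those of WT/PBS. Ctla4 stood at 298 CPM (730 UMIs) against 442 CPM (60 UMIs), a ratio of 0.675 [0.518 to 0.894]. Cd28 stood at 199 CPM (488 UMIs) against 405 CPM (55 UMIs), a ratio of 0.492 [0.372 to 0.663]. Against the 23 T-like cells of Pdgfrb-TK/PBS both turned, to 0.40 for Ctla4 and 1.40 for Cd28 on the log2(CPM + 1) scale, and with Leiden clusters Ctla4 turned to 0.26. In the Pdgfrb-TK model neither differed beyond counting error, with ratios of 0.543 [0.261 to 1.27] for Ctla4 and 1.93 [0.624 to 9.67] for Cd28.

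Lag3, a receptor for MHC class II, had 257 UMIs in D-CAN T-like cells (105 CPM) and none in the 47 T-like cells of WT/PBS. Cd8+ cells held 197 of the 257 UMIs, and WT/PBS had 8 Cd8+ cells. Against a floor of 3 UMIs in that library, the Lag3 ratio with D-CAN was 4.75, and the lower limit of its exact counting interval was 3.84. The T-like cells of Pdgfrb-TK/PBS held 1 Lag3 UMI (25.1 CPM). With D-CAN, 28.8% of T-like cells held Lag3. In KPC tumor-like cells of D-CAN it was detected in 5.12% of cells, and in 0.666% after thinning. Tigit, which competes with Cd226 for shared ligands, stood at 43.7 and 44.2 CPM in T-like cells of D-CAN and WT/PBS (107 and 6 UMIs, ratio 0.989 [0.440 to 2.76]). Havcr2 stood at 87.9 and 44.2 CPM (215 and 6 UMIs, ratio 1.99 [0.899 to 5.48]), and against Pdgfrb-TK/PBS Havcr2 turned to -0.99 on the log2(CPM + 1) scale. In T-like cells, 2 of the 10 genes were past 2-fold with D-CAN, Lag3 up and Cd28 down, where 31.7% of the genes tested were past 2-fold. With GCV 0 of 2 genes with enough UMIs were, against 31.4%.

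**Figure D5:**
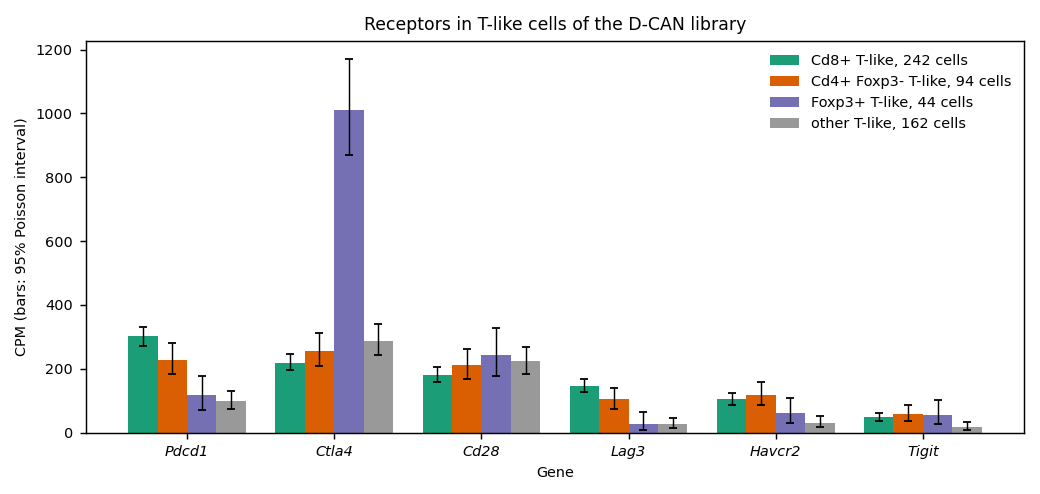
Receptor levels in the T-like cells of D-CAN, split by the genes that name each subset, as CPM on a linear axis; bars are sums over the cells of a subset and error bars exact Poisson 95% intervals. Ctla4 is highest in Foxp3+ cells at 1012 CPM, and Pdcd1 and Lag3 in Cd8+ cells at 301 and 145 CPM.

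D-CAN was the only library with enough T-like cells to be split by Cd8, Cd4 and Foxp3. It held 242 Cd8+ cells (44.6% of its T-like cells), 94 Cd4+ Foxp3- cells, 44 Foxp3+ cells and 162 others, which held none of these genes or both Cd4 and Cd8. WT/PBS held 8, 6, 4 and 29 of them. Each level per subset below is for D-CAN only and has no PBS value beside it.

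Pdcd1 stood at 301 CPM [273 to 332] in Cd8+ cells, 228 [183 to 280] in Cd4+ Foxp3- cells and 116 [71.9 to 177] in Foxp3+ cells. It was therefore higher in Cd8+ than in Foxp3+ cells beyond counting error. Lag3 followed the same order at 145 [126 to 167], 104 [74.6 to 141] and 27.6 CPM [8.98 to 64.5], the last from 5 UMIs. Ctla4, which regulatory T cells carry constitutively, ran the other way, at 1012 CPM [871 to 1169] in Foxp3+ cells against 219 [195 to 246] in Cd8+ cells and 256 CPM in Cd4+ Foxp3- cells.

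Detection followed the levels. Ctla4 was detected in 88.6% of Foxp3+ cells and 40.5% of Cd8+ cells, and in 73.5% and 26.0% after thinning. Pdcd1 was detected in 64.9% of Cd8+ cells (39.0% after thinning) and Lag3 in 47.9% (22.1%). Havcr2 was detected in 29.3% of Cd8+ cells (15.6%) at 104 CPM, and Tigit in 19.4% (9.52%) at 47.9 CPM. Cd28 varied little between subsets, at 181 CPM in Cd8+, 210 in Cd4+ Foxp3- and 243 in Foxp3+ cells. The ligands were also found in D-CAN T-like cells, with 154 UMIs of Cd274, 118 of Pdcd1lg2, 81 of Cd86 and 64 of Cd80. Pdcd1lg2 had 84 UMIs in Cd8+ cells (61.8 CPM), 16 in Foxp3+ cells (88.5 CPM) and 4 in Cd4+ Foxp3- cells (10.1 CPM).

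At least 2 of the 5 inhibitory receptors (Pdcd1, Ctla4, Lag3, Havcr2 and Tigit) were detected in 6.25%, 8.70%, 44.8% and 27.7% of T-like cells. The D-CAN interval, 40.6% to 49.1%, overlapped that of WT/PBS, 15.6% to 42.6%, and after thinning the shares were 24.2% and 17.7%. In D-CAN, 124 T-like cells (22.9%) held at least 3, 39 held at least 4 and 9 held all 5. Among Cd8+ cells of D-CAN, 158 (65.3% [58.9 to 71.3]) held at least 2 and 89 (36.8%) at least 3, and 31.2% held at least 2 after thinning.

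Pdcd1 and Lag3 were detected together in 88 Cd8+ cells of D-CAN, which is 56.1% of the 157 cells with Pdcd1, beside 32.9% with Lag3 among those without it. Of the 71 Cd8+ cells with Havcr2, 58 (81.7%) also held Pdcd1. The cells that held both Pdcd1 and Lag3 had a median of 6245.5 UMIs, against 4916.5 over all Cd8+ cells, and the part of depth in these pairs was not tested. Among Cd4+ Foxp3- cells, 22 of 37 with Pdcd1 held Lag3 (59.5%), beside 8.77% of those without Pdcd1. Those 22 cells had a median of 5668 UMIs, against 3334.5 over all Cd4+ Foxp3- cells, and the part of depth was not tested here either.

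Havcr2 was highest outside T-like cells in 3 of 4 libraries. DC-like cells stood at 134, 129, 149 and 125 CPM, a narrow range over the 4 libraries, and were the highest class in Pdgfrb-TK/GCV, D-CAN and WT/PBS. In Pdgfrb-TK/PBS, T-like cells stood at 175 CPM from 7 UMIs in 2 cells and were not apart from DC-like cells (1.36 [0.490 to 3.29]). Macrophage/monocyte-like cells stood at 37.5, 34.3, 55.2 and 27.7 CPM, 1.99-fold [1.62 to 2.46] higher with D-CAN, and 1.99-fold and 2.33-fold inside clusters 7 and 10. Lag3 was also present in macrophage/monocyte-like cells at 11.8, 14.9, 9.90 and 5.41 CPM, and in Pdgfrb-TK/GCV this class was the highest for Lag3, not apart from DC-like cells (1.27 [0.484 to 4.74]).

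Other genes of the pathway were taken from 3 lists. Among all genes with at least 50 UMIs, 10.6% were past 2-fold in either direction with D-CAN and 6.97% with GCV, with medians of 0.13 and 0.09 on the log2 scale. Of 15 further receptors and T cell genes, 10 were past 2-fold with D-CAN, all higher (Icos, Tnfrsf4, Tnfrsf18, Cd27, Cd226, Cd96, Btla, Cd160, Klrc1 and Tox), and their median log2 difference was 1.45. With GCV 3 of 13 with at least 50 UMIs were, also all higher (Tnfrsf9, Cd244a and Cd200r1), with a median of 0.22. Of 19 further ligands, 18 had enough UMIs with D-CAN, of which 3 were higher and 1 lower, and 15 with GCV, of which 2 were higher and 1 lower. The genes of these lists past 2-fold in both models were Vsir (VISTA) at 1.67 and 1.04 on the log2(CPM + 1) scale with GCV and D-CAN, Sirpa, the macrophage receptor of Cd47, at 1.48 and 1.02, and Vtcn1 (B7-H4) at -1.21 and 1.28.

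Of 9 genes of the IFN-gamma axis, which induces Cd274 in many cell types, 4 were higher by more than 2-fold with D-CAN over all cells, beside the 10.6% of all genes, and 0 of 8 with GCV, beside 6.97%. Ifng had 566 UMIs with D-CAN against 16 in WT/PBS, a 42.4-fold ratio in CPM, and 461 of the 566 lay in T-like cells (188 CPM, against 44.2 in WT/PBS). Irf1 was 2.81-fold and Cxcl9 15.3-fold higher, whereas Cxcl10 stood at a ratio of 1.01. In macrophage/monocyte-like cells, Cxcl9 stood at 374 CPM with D-CAN (1851 UMIs) against 1.80 CPM in WT/PBS (9 UMIs). Cd274 stood at 248 and 365 CPM in the same cells, with ratios of 0.690 inside cluster 7 and 1.47 inside cluster 10. Against the other PBS library this Cd274 difference turned to 0.99 on the log2(CPM + 1) scale. The part of IFN-gamma in these levels was not tested.

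Over 28 profiles of class and library with at least 50 cells, the genes with the most similar levels were taken by Pearson correlation of log2(CPM + 1) among 17725 genes. The 28 profiles share 4 libraries, so the values are descriptions. T-like profiles came only from Pdgfrb-TK/GCV and D-CAN, with 1 and 107 UMIs of Tigit and 8 and 571 of Pdcd1. Values for receptors of T-like cells thus rest largely on the D-CAN profile. Cd274 was closest to Plek (0.96), Fgr and Ncf1, and Cd86 to Ctss (0.96), Nckap1l and Cd83. Pdcd1lg2 was closest to Bcl2a1d (0.94), Vav1 and Snx20. Cd80 was closest to Il1r2 (0.94), which is itself a neutrophil marker of the class gate, Med12l and Rhog. Among receptors, Cd28 was closest to Cd96 (0.98), Foxp3 and Cd3e, Ctla4 to Cd3g (0.91), Lat and Gm44174, and Pdcd1 to Gm44174 (0.92), Cd6 and Cd8a. Tigit was closest to Xcl1 (0.93), Gzma and Ifng, and Havcr2 to Matk (0.95), Cd200r1 and Jaml. Lag3 was closest to Calhm6 (0.78), the lowest first value of the 10 genes.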

How the data were processed

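The authors deposited raw counts, UMIs per gene and cell, from droplet scRNA-seq (Chromium 3' chemistry per the methods) of 4 tumor libraries, 1 per condition, after their software had removed empty droplets. The file headers name Cell Ranger 7.0.0 and the methods an older version with mm10, and whether intronic reads were counted is not given in the sources used here. The protocol text of the labels describes nuclei of another tissue, so conditions were taken from the sample titles.

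Counts were read with Python 3.11.15, numpy 2.4.6, scipy 1.17.1 and pandas 2.3.3. Cells with at least 200 genes were kept. KPC tumor-like cells needed at least 3 tumor markers and a share of that list at least 2 times that of any other class. Each remaining cell was given the non-tumor class whose marker list it covered best, with at least 3 markers. Remaining cells in which a second non-tumor lineage reached 0.5 of the first, or which held at least 4 tumor markers, were left as mixed. Doublets were not removed. T-like cells were split by UMIs of Foxp3 first, then of Cd8a or Cd8b1 or of Cd4 alone. Clusters came from scanpy 1.11.5 with leidenalg 0.10.2 (2000 variable genes, 10 principal components, 20 neighbors, resolution 0.8).

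Sums of counts over the cells of a class in a library became CPM, with Poisson intervals (exact). Treated libraries were divided by the PBS control of the same model, as a CPM ratio with an exact conditional binomial interval, and a gene with at least 20 UMIs in the pair of libraries (50 for the pathway lists) counted as past 2-fold on log2(CPM + 1). Shares have exact Clopper-Pearson intervals, and were repeated on cells thinned to 2000 UMIs. A count of 0 was replaced by a floor of 3. With 1 library per condition no test was made. The ratio intervals were tested on simulated Poisson counts, the model they assume. That checks the calculation only, and does not cover UMIs that cluster in single cells or differences between mice. Alternatives changed the gate, the clusters, the cell filters, the pseudocount, the totals and the control library. Named were all 10 genes, pathway genes past 2-fold in both models (at most 8) and the 3 genes most similar to each. The genes and lists were chosen with earlier results of these data known. Some genes of the lists are not reported here. Figures were drawn with matplotlib 3.10.9.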

Additional observations from a re-analysis of the deposited data

Results flagged for a closer look

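In 3 cases, differences between a treated library and its PBS library ran in opposite directions in the 2 models, and the difference between the models was not tested because each rests on 1 library per condition. Ctla4 over all cells stood at a ratio of 0.755 with GCV and 4.18 with D-CAN. Against the other model's PBS library both were higher, at 0.33 and 1.04 on the log2(CPM + 1) scale. KPC tumor-like cells held 261 of the 353 Ctla4 UMIs in Pdgfrb-TK/PBS, whereas T-like cells held 730 of the 1259 in D-CAN. Cd274 in macrophage/monocyte-like cells stood at 1.35 with GCV and 0.681 with D-CAN, and with the other PBS library both turned, to -1.11 and 0.99. Cd274 in neutrophil-like cells stood at 0.767 with GCV and 1.27 with D-CAN, and with the other PBS library they stood at 0.02 and -0.06. After thinning to 2000 UMIs, the neutrophil-like difference with GCV turned to 0.97 on the log2(CPM + 1) scale. None of the 3 patterns thus held with the other control.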

How the results depend on the processing

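Of the results that answer a comparison, 88 values under an alternative stayed within 1.5 times the count or within the counting interval reported, and 26 moved. Of the values for single genes, 335 stayed on their side of 2-fold, 41 moved (39 across 2-fold and 2 shares of all genes past 2-fold without a UMI filter), and 2 that were past 2-fold changed sign. These 2 came when the control was the other model's PBS library, Cd274 over all cells with GCV at -0.16 and Cd28 in T-like cells with D-CAN at 1.40, both on the log2(CPM + 1) scale. Counting differences under 2-fold too, 17 of 52 changed sign with that control. Under all other settings 27 of 324 did, of which 7 of 32 with Leiden clusters, 8 of 32 after thinning and 7 of 32 with a gate of 2 markers, so directions within classes depend on the control and, for some, on the class definition.

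With that control, 3 of the 10 genes were past 2-fold over all cells with GCV instead of 5, all higher. With D-CAN every gene but Tigit (0.93 on the log2(CPM + 1) scale) was past 2-fold and higher, instead of 6. In T-like cells 3 receptors were past 2-fold with GCV instead of 0, and 4 with D-CAN instead of 2. Of the ligands by class in macrophage/monocyte-like, DC-like and neutrophil-like cells, 5 of 12 were past 2-fold with GCV instead of 0 and 2 with D-CAN instead of 4. Those with GCV were lower but for Cd80 in neutrophil-like cells (3.39), and those with D-CAN were higher. For the counts of this paragraph no share of all genes is given. The count of T-like receptors with GCV was 1 without the 8% of cells with the highest Scrublet scores, 2 with a gate of 2 markers, 1 with a gate of 4 markers and 1 after thinning, and that with D-CAN was 1 after thinning. The count of ligands by class with GCV was 1 with a gate of 2 markers, 1 with Leiden clusters and 1 after thinning.

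T-like cells with at least 2 inhibitory receptors in D-CAN made up 36.6% with Leiden clusters and 24.2% after thinning. DC-like and macrophage/monocyte-like cells together with at least 2 ligands made up, in Pdgfrb-TK/GCV, 36.7% with a gate of 2 markers, 46.3% with a gate of 4 and 17.8% after thinning. In Pdgfrb-TK/PBS they made up 14.5% with a gate of 2 and 15.3% after thinning. In D-CAN they made up 42.5% with a gate of 2, 53.3% with a gate of 4, 45.5% with Leiden clusters and 27.9% after thinning. In WT/PBS they made up 48.9% with a gate of 2 and 28.0% after thinning. The causes of these shifts were not tested, except that thinning removes UMIs by construction.

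No paired analysis was possible because each condition has 1 library. T-like cells numbered 23 and 47 in the PBS libraries, which limits every T-like ratio, and no interval covers variation between mice.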

Other observations

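Plasmacytoid DC-like cells, of which D-CAN held 5, carried Lag3 with 5 UMIs in 4 cells and Cd28 with 11 UMIs in 1 cell. The PBS libraries of the 2 models differed from each other in some of the ligands. Over all cells, Cd86 in Pdgfrb-TK/PBS stood at 0.413 of WT/PBS, Cd80 at 0.996 and Ctla4 at 1.81. In macrophage/monocyte-like cells, Cd274 in Pdgfrb-TK/PBS stood at 0.342 [0.294 to 0.396] of WT/PBS. The strain, the transgene and the library cannot be told apart in these differences.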
